A study of Mus musculus with 4 samples.

Results

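The YAP-TEAD pathway was followed through 10 genes: the co-activators Yap1 and Wwtr1 (TAZ), the DNA-binding partners Tead1, Tead2, Tead3 and Tead4, and the target genes Ctgf, Cyr61, Ankrd1 and Amotl2. They were picked by name, as the rows of the deposited table that carry these symbols, and all 10 were found among its 17604 genes. RNA had been sequenced from colonic intestinal epithelial cells of mice that were wild type or Stat4-/-, all labelled as strain C57BL/6. The cells were cultured on Matrigel for 24 h of attachment and then kept as control or given LIF at 20 ng/ml. LIF, leukemia inhibitory factor, is a cytokine that signals through gp130, and STAT4 belongs to the transcription factors that cytokine receptors switch on. The series title links LIF to STAT4 in intestinal inflammation. The labels used here do not state the age and sex of the mice, the time under LIF of each library or the kind of Stat4 allele. The deposited values hold 1 column per group, called a library here, so a difference between single libraries has no replicate check. The design text speaks of duplicates, and whether a column pools them is not stated. The labels do not say whether the control and LIF cells of a genotype came from the same mice, and a test over libraries then measures the spread between libraries, which may be technical.

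YAP and TAZ do not bind DNA themselves. In the Hippo cascade, the MST kinases (Stk3, Stk4) activate the LATS kinases (Lats1, Lats2), which phosphorylate YAP and TAZ and hold them in the cytoplasm. When YAP and TAZ enter the nucleus, they bind TEAD proteins and switch on target genes. In the gut, YAP is known above all for regeneration of the epithelium after injury. Transcript levels show neither YAP protein nor its place in the cell.

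The values are FPKM, fragments per kilobase of transcript scaled to the mapped fragments of the library, so levels of different genes can be compared. Steps in the low values put the depth at about 24200000, 21900000, 23100000 and 27800000 fragments in wild type without and with LIF and in Stat4-/- without and with LIF, and values are given in this order throughout. At that depth, about 112 fragments lay behind the least covered value of Ankrd1, 338 behind that of Tead3 and 8749 behind that of Cyr61; intervals from these numbers cover counting error only. Stat4 itself was at 19.7, 20.5, 2.01 and 2.98 FPKM, which goes with the genotype labels. The epithelial markers Epcam, Krt8 and Cdh1 were high in all 4 libraries (Epcam 463.5 to 500.3 FPKM), but none of the 35 markers of epithelium, fibroblasts, smooth muscle, endothelium and leukocytes that were looked up was at 0 in any library. The Y-linked genes Ddx3y (5.86, 6.34, 0.05 and 0.07 FPKM) and Eif2s3y (6.68, 7.69, 0.02 and 0.10 FPKM) also separated the genotypes, so genotype and this difference between the cell sources cannot be told apart.

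Promoters of the target genes Cyr61, Ankrd1 and Amotl2 are shown because a TEAD site there can be a link between the co-activators and their targets. Ctgf had no match in the promoter table, so its promoter was not searched. The windows run from 250 bases before to 50 bases after the annotated start in RefSeq (GRCm38.p6, the same assembly as mm10), 5′ to 3′ on the strand of the gene, and capitals mark the core TEAD motif, GGAATG or its complement CATTCC. Cyr61 is listed in RefSeq as Ccn1. The windows are chr3:145649936-145650235 on the minus strand for Cyr61, chr19:36119795-36120094 on the minus strand for Ankrd1 and chr9:102717554-102717853 on the plus strand for Amotl2.
Cyr61: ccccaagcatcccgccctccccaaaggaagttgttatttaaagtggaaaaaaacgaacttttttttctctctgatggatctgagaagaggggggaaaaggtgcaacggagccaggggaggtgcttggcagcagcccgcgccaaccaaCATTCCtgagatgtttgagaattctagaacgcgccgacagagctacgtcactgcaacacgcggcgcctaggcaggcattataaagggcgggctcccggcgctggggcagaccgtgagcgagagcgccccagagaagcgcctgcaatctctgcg
Ankrd1: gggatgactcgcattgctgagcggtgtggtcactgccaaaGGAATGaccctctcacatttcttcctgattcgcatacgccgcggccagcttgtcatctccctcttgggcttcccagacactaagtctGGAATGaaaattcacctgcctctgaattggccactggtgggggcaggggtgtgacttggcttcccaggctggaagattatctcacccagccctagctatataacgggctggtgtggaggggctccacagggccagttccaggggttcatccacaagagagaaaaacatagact
Amotl2: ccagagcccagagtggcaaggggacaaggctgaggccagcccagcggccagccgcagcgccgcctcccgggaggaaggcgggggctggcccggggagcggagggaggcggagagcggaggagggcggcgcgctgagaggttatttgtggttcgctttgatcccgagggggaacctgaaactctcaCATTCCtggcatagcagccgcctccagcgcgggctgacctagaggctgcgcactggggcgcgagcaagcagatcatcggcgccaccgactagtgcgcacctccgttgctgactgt

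The core began at base -103 from the start site in Cyr61, at -210 and -123 in Ankrd1 and at -65 in Amotl2. Of the 10 genes, 7 were matched in the promoter table, all but Ctgf, Tead1 and Tead4. Of these 7, 6 held the core in at least 1 window, the exception being Tead2, and Yap1 held it at -141. By window the count was 8 of 10, and 14.7% of 32851 promoter windows of the same length in the mouse genome held the core on either strand. The windows are not all separate: those of Wwtr1 overlap and hold the same core, at -136 and -170, and those of Tead3 overlap too. The AP-1 motif TGANTCA and the STAT motif (TTC, then 3 bases, then GAA) were in 0 of these 7 genes' windows, and in 7.81% and 8.30% of all windows. These are matches of letters in a short window and say nothing of binding.

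Cyr61 and Ctgf, which encode secreted CCN proteins of the extracellular matrix, were the most abundant of the 10 genes. Cyr61 was at 224, 229, 188 and 210 FPKM, and Ctgf at 138, 131, 92.2 and 102 FPKM. Both were lower in each Stat4-/- library than in either wild-type library. In bulk RNA, fewer cells of a type and less RNA per cell cannot be told apart. Amotl2, an angiomotin family protein that binds YAP and keeps it from the nucleus, was at 40.4, 36.6, 36.0 and 35.2 FPKM. Ankrd1, a nuclear ankyrin repeat protein, stood far below the other targets, at 3.43, 2.84, 2.92 and 2.0 FPKM. The mean of Cyr61 exceeded 97.6% of the 12274 genes tested (a filter of 1 FPKM on the mean, which all 10 passed), and that of Ankrd1 exceeded 16.1%.

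Of the co-activators, Wwtr1 was at 42.5, 41.6, 43.9 and 48.4 FPKM and Yap1 at 33.7, 35.0, 38.7 and 41.2 FPKM. Wwtr1 was above Yap1 in 4 of 4 libraries, with a ratio of Yap1 to Wwtr1 of 0.792, 0.840, 0.882 and 0.851. Tead1 led the TEAD genes, at 26.01, 24.5, 23.5 and 23.0 FPKM, followed by Tead4 at 14.3, 16.3, 16.9 and 19.3 FPKM. Tead3 (6.26, 6.57, 5.27 and 5.36 FPKM) and Tead2 (5.67, 5.45, 6.14 and 4.91 FPKM) were lower than both. Ordered by mean level, the genes ran Cyr61, Ctgf, Wwtr1, Yap1, Amotl2, Tead1, Tead4, Tead3, Tead2 and Ankrd1. Neighbours in this order did not overlap over the 4 libraries except for Yap1 with Amotl2, where Yap1 was higher in 2 of 4, and Tead3 with Tead2, where Tead3 was higher in 3 of 4.

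**Figure D1:**
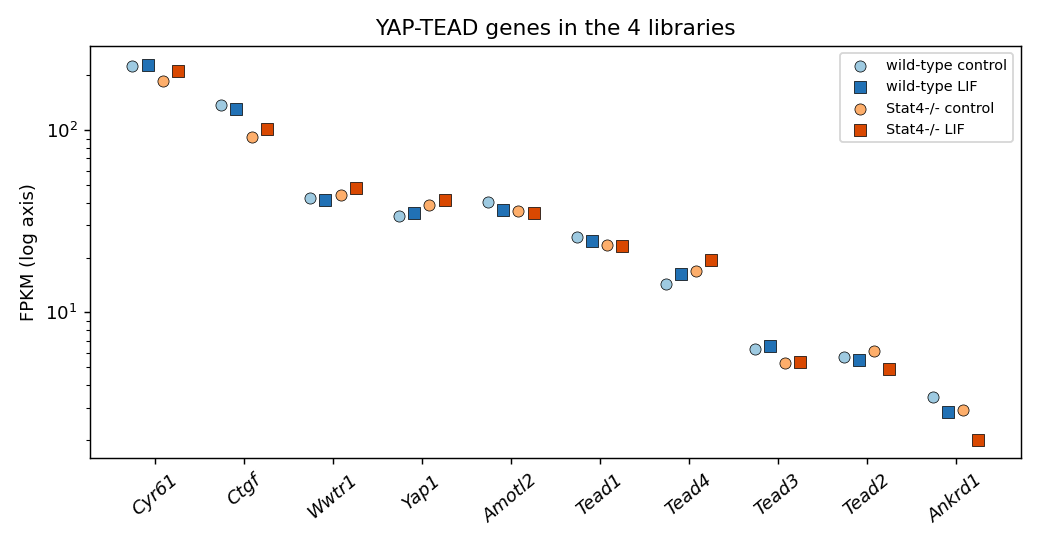
FPKM of the 10 YAP-TEAD genes on a log axis, with 1 point per library (blue for wild type, orange for Stat4-/-, circles for control, squares for LIF). Cyr61 and Ctgf lie highest and Ankrd1 lowest, and the orange points of Ctgf (92.2 and 102 FPKM) lie below its blue points (138 and 131 FPKM).

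The summed level of the TEAD genes was 52.2, 52.8, 51.8 and 52.6 FPKM, and its makeup differed between libraries. Tead1 made up 49.8, 46.4, 45.4 and 43.8% of the sum and Tead4 27.4, 30.8, 32.6 and 36.6%. The ratio of Tead1 to Tead4 was thus 1.82 and 1.51 in wild type, and 1.39 and 1.20 in Stat4-/-. It was lower with LIF than without in both genotypes, and lower in each Stat4-/- library than in either wild-type library. The ratio was not tested, and how often other gene pairs order this way was not computed. In the tests given below, neither gene passed for LIF and Tead1 did not pass for genotype. Tead4 passed for genotype, but in only 3 of 8 alternative settings. Tead3 gave 10.2 to 12.4% and Tead2 9.34 to 11.8%. At most 0.892% of the 31-base words of any TEAD gene occur in another listed gene, so sharing of reads between the paralogs was small. Tead2 has exons that overlap exons of Cd37, a leukocyte gene on the opposite strand; Cd37 was at 2.41, 3.47, 4.95 and 6.63 FPKM, and whether counting used the strand is not given, so reads of the pair cannot be told apart.

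**Figure D2:**
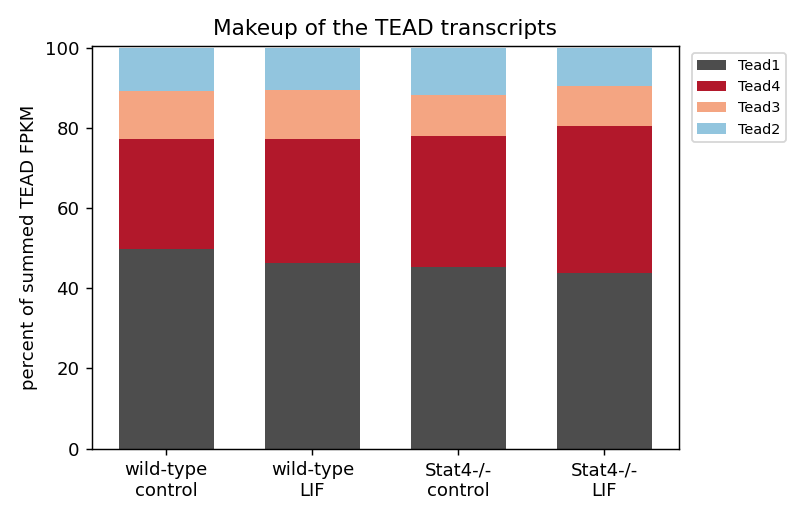
Share of each TEAD gene in the summed TEAD FPKM, as stacked bars with 1 bar per library. From left to right the share of Tead4 goes from 27.4 to 36.6% and that of Tead1 from 49.8 to 43.8%, at sums between 51.8 and 52.8 FPKM.

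Whether LIF shifts the pathway was asked first within each genotype, on log2(FPKM + 1). In wild-type cells, the 10 genes differed between LIF and control by at most 0.21, and 0 of them reached the 2-fold mark (a difference of 1), against 0.13% of all tested genes. Yap1 was 3.86% higher with LIF (0.05), Wwtr1 differed by -0.03 and Cyr61 by 0.03. Tead4 was 13.8% higher (0.17), Amotl2 differed by -0.14, Tead1 by -0.08 and Ctgf by -0.07, each beyond counting error. The median size of the wild-type LIF difference over all genes was 0.09, and how many of them went beyond counting error was not computed. The median over the 10 genes was -0.04, against 0.00 over all genes tested.

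In Stat4-/- cells, the differences with LIF were somewhat wider, up to 0.39 in size, and again 0 of 10 reached 2-fold (0.122% of all genes). Cyr61 was 12.2% higher, Ctgf 10.6% higher and Wwtr1 10.3% higher, at differences of 0.16, 0.14 and 0.14. Yap1 was 6.33% higher (0.09) and Tead4 14.0% higher (0.18). Tead2 and Ankrd1 stood lower, at differences of -0.27 and -0.39, although the Ankrd1 value rests on 136 and 112 fragments. The median was 0.05, against -0.01 over all genes. Counting error takes no account of variation between cultures.

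Set side by side, the LIF differences of Yap1, Tead4, Cyr61 and Tead3 were above 0 in both genotypes, as were those of 28.8% of all genes, and those of Tead1, Tead2, Ankrd1 and Amotl2 were below 0 in both, as in 29.3% of all genes. The Cyr61 difference in wild type turned from 0.03 to -0.05 after quantile normalization. Wwtr1 and Ctgf had opposite signs, and the wild-type difference of Wwtr1 lay within counting error. A LIF effect shared by the genotypes was tested with limma, a linear model with genotype and treatment as additive terms, fitted to all genes and adjusted by Benjamini-Hochberg over them. None of the 10 genes passed at an adjusted p of 0.05, whereas 0.701% of all genes rose and 0.122% fell. At an unadjusted p under 0.05 there were 3 of 10 genes, Cyr61, Tead4 and Ankrd1, against 12.5% of all genes. Tead4 had a coefficient of 0.18 (SE 0.070, limma adjusted p = 0.309, higher with LIF in 2 of 2 genotypes), Cyr61 of 0.10 (SE 0.042, limma adjusted p = 0.363) and Ankrd1 of -0.30 (SE 0.129, limma adjusted p = 0.373). For Yap1 the coefficient was 0.07 with a 95% interval from -0.05 to 0.19, for Wwtr1 0.05 (-0.07 to 0.18) and for Ctgf 0.03 (-0.08 to 0.15). These intervals, which limma bases on 1 residual degree of freedom and spread borrowed from other genes, lie short of a 2-fold change in either direction.

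**Figure D3:**
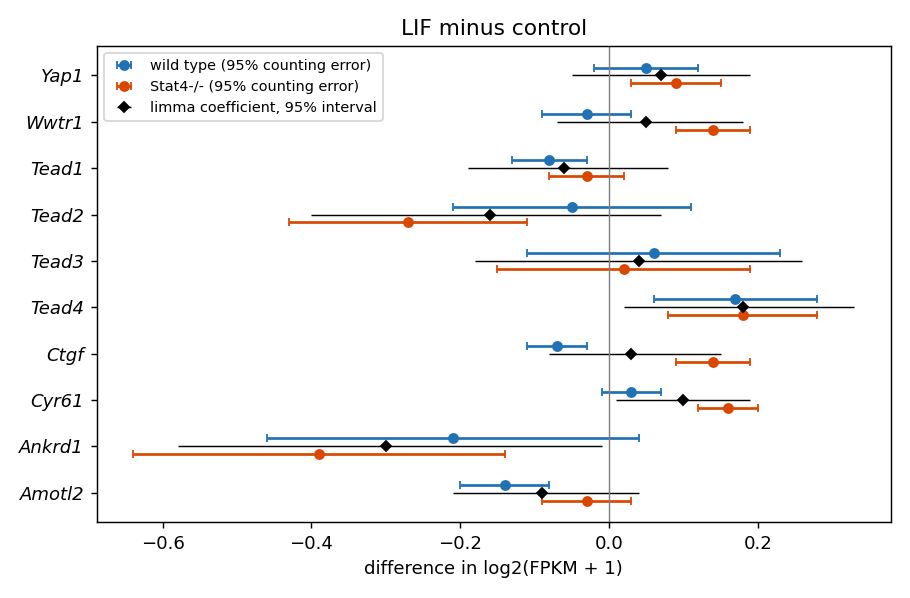
Difference between LIF and control in log2(FPKM + 1) for each gene, in wild type (blue) and Stat4-/- (orange) with bars for 95% counting error, and the limma coefficient over both genotypes (black diamonds) with its 95% interval. Tead4 (0.17 and 0.18) lies above 0 in both genotypes, Ankrd1 (-0.21 and -0.39) below 0 in both, and Ctgf (-0.07 and 0.14) on both sides.

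The difference of the LIF effects between genotypes leaves no residual degree of freedom and was not tested. Its size was at most 0.22, with 0 of 10 genes at 2-fold against 0.342% of all genes. Ctgf (0.22), Wwtr1 (0.17), Cyr61 (0.13) and Amotl2 (0.11) had LIF differences higher in Stat4-/- than in wild type by more than counting error. The median size of this difference over all genes was 0.11, and the share of all genes beyond counting error was not computed.

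More of the 10 genes passed the test for genotype than for LIF. With the limma genotype coefficient (Stat4-/- minus wild type, over both treatments), 4 of 10 genes passed: Ctgf and Cyr61 were lower in Stat4-/- and Yap1 and Tead4 higher. The control and LIF libraries of a genotype act as its repeats here and may share mice, so the p-values may leave out spread between mice. Genotype also cannot be told apart from the Y-linked difference between the cell sources. Among all genes 7.68% were lower and 7.81% higher, beside 2 of 10 in each direction. At an unadjusted p under 0.05 there were 6 of 10, beside 29.4% of all genes. The 10 genes are few and were chosen with earlier results of these data known, so no excess is read from these shares. Ctgf in Stat4-/- differed from wild type by -33.2% without LIF and -22.2% with LIF, with a coefficient of -0.47 (SE 0.053, limma adjusted p = 0.00015). Cyr61 differed by -16.4 and -8.22% (coefficient -0.19, SE 0.042, limma adjusted p = 0.0107). Yap1 was 15.0 and 17.7% higher (coefficient 0.21, SE 0.055, limma adjusted p = 0.0237). Tead4 was 18.3 and 18.5% higher (coefficient 0.23, SE 0.070, limma adjusted p = 0.0474). The co-activator gene and these 2 of its targets thus differed in opposite directions. This did not hold for targets in general: of 18 other listed targets, 4 passed as higher, like Yap1, and 2 as lower. Over 8 alternative settings the limma adjusted p ran from 0.0377 to 0.145 for Tead4, which passed in 3, and from 0.0185 to 0.163 for Yap1, which passed in 6. It ran from 0.0064 to 0.221 for Cyr61, which passed in 6, and from 2.67e-05 to 0.0795 for Ctgf, which passed in 7.

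The other 6 genes did not pass. Wwtr1 was 3.25% higher without and 16.3% higher with LIF (coefficient 0.13, 95% interval 0.00 to 0.26, limma adjusted p = 0.165). Tead3 differed by -15.8 and -18.4% (coefficient -0.23, limma adjusted p = 0.148). Ankrd1 differed by -14.9 and -29.6% (coefficient -0.27, limma adjusted p = 0.196), within a 95% interval of -0.55 to 0.02. Amotl2 (-0.11) and Tead1 (-0.11) had limma adjusted p-values of 0.232 and 0.266, and Tead2 had a coefficient of -0.01 (limma adjusted p = 0.955), which was 0.00 and above 0 after median-of-ratios scaling and 0.03 after quantile normalization. In all, 3 genes (Yap1, Wwtr1, Tead4) were higher in both Stat4-/- libraries than in both wild-type libraries, as were 24.4% of all genes, and 5 (Ctgf, Cyr61, Tead1, Tead3, Amotl2) were lower in both, as were 28.9%. Only Tead2 and Ankrd1 of the 10 overlapped between genotypes.

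By treatment, the genotype difference of Ctgf was -0.58 without LIF, the largest of the 10, and -0.36 with LIF, where Ankrd1 was also at -0.36. At 2-fold there were 0 of 10 genes in either treatment, against 0.603% of all genes without LIF and 0.75% with it. The median over the 10 genes was -0.15 without LIF and -0.10 with LIF, against -0.01 and -0.02 over all genes. Yap1 (0.20 and 0.23) and Tead4 (0.23 and 0.23) differed by nearly the same amount in both treatments, whereas Cyr61 went from -0.26 to -0.12.

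**Figure D4:**
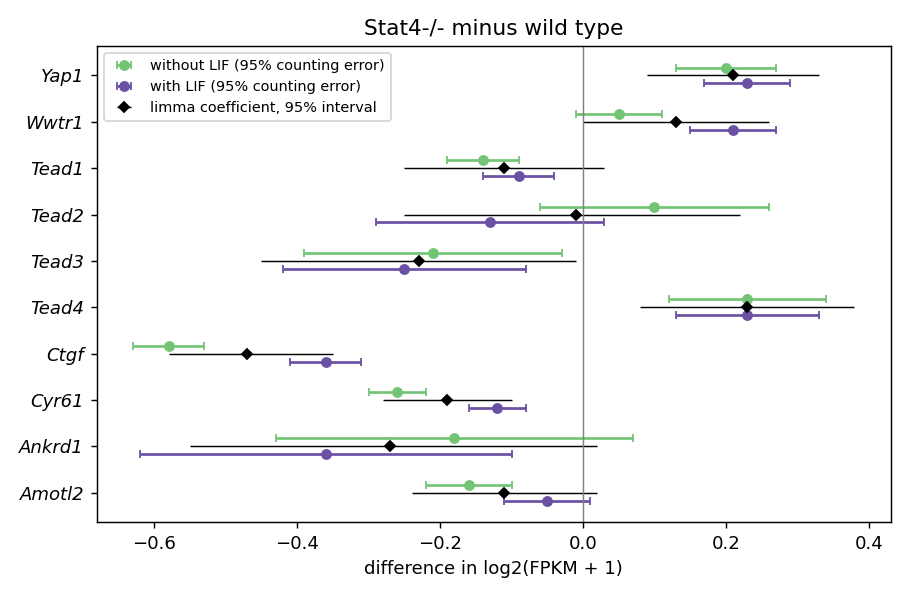
Difference between Stat4-/- and wild type in log2(FPKM + 1) for each gene, without LIF (green) and with LIF (purple) with bars for 95% counting error, and the limma coefficient (black diamonds) with its 95% interval. Ctgf lies at -0.58 and -0.36, and Yap1 and Tead4 lie to the right of 0 in both treatments.

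Ctgf and Cyr61 are also expressed by cells other than epithelium, so marker levels are given beside them. As a background for the counts, 7.81% of all genes passed as higher and 7.68% as lower in Stat4-/-. With LIF, 0.701% passed as higher and 0.122% as lower. The lists are short and were chosen with earlier results of these data known. The summed FPKM of 7 smooth muscle markers was 232, 224, 325 and 290, with 6 higher in Stat4-/- by limma (Actg2 in 2 of 8 alternative settings) and 1, Acta2, lower. That of 8 fibroblast markers was 658, 643, 625 and 601, with 1 higher (Lum) and 2 lower (Col1a1 and Vim). For 5 endothelial markers the sum was 181, 174, 209 and 217, with 3 higher. For 7 leukocyte markers the sum was 53.8, 59.5, 43.5 and 51.1, with 2 higher (Cd52 and Cd79a) and 1 lower (Jchain). For 8 epithelial markers the sum was 8563, 8365, 8186 and 7669, with 3 lower (Krt19, Krt20 and Vil1). The smooth muscle sum was thus higher in the libraries where Ctgf and Cyr61 were lower, and the epithelial sum was lower there. Krt19 alone was at 2430, 2328, 2137 and 1906 FPKM, and without it the epithelial sum did not separate the genotypes. Of the 8 epithelial markers, 3 had genotype coefficients above 0 and 5 below. The fibroblast sum was carried by Vim, and the other 7 markers summed to 278, 287, 290 and 285 FPKM. The lower leukocyte sum in Stat4-/- was carried by Jchain, at 25.63, 24.98, 4.64 and 3.5 FPKM. Of the 7 leukocyte markers, 4 had genotype coefficients above 0 (Lyz2 at 0.00) and 3 below. Cd52 was the 1 cell type marker that passed as higher with LIF, and it passed in 2 of 8 alternative settings. The part of these cells in the results was not tested. Of 7 immediate early genes, which culture handling can induce, 3 (Fosb, Jun and Junb) were higher in Stat4-/-, and 1 (Ier2) passed as higher with LIF, in 2 of 8 alternative settings as well; their part was not tested either.

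Upstream of YAP, 17 genes of the Hippo kinase cascade and its regulators were measured. For LIF, 0 of 17 passed in limma and 0 had an unadjusted p under 0.05, beside 12.5% of all genes. Across all genes, 7.81% passed as higher and 7.68% as lower for genotype. For genotype, 2 were higher in Stat4-/- (Map4k4, a kinase that can activate LATS, at 82.7, 82.9, 92.03 and 94.3 FPKM, and Taok2, which phosphorylates MST kinases, at 19.65, 18.4, 23.0 and 21.4 FPKM). A single gene was lower, Wwc2, a relative of the scaffold KIBRA, at 18.7, 17.99, 15.4 and 13.8 FPKM. The kinase genes Stk3, Stk4, Lats1 and Lats2, picked for their roles after the values were seen, had genotype coefficients of -0.16, 0.00, -0.05 and -0.11, and none passed. The most abundant others were Mob1a (62.9 to 67.1 FPKM), Wwc1 (54.2 to 60.6 FPKM), Taok3 (36.3 to 39.1 FPKM) and Frmd6 (27.3 to 31.03 FPKM). The Taok2 call held in 2 of 8 alternative settings, that of Map4k4 in 5 and that of Wwc2 in 6. The list's median genotype coefficient was -0.05, against -0.01 over all genes.

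Of 10 genes for binding partners of YAP and TEAD, 8 were in the table. For LIF, 0 of 8 passed in limma and 4 had an unadjusted p under 0.05, beside 12.5% of all genes. Genotype calls covered 7.81% (higher) and 7.68% (lower) of all genes. For genotype 1 passed: Ajuba, a LIM protein that restrains LATS, was at 32.35, 29.5, 27.2 and 24.0 FPKM (coefficient -0.26, limma adjusted p = 0.0119, passed in 6 of 8 alternative settings). Vgll4, which competes with YAP for TEAD, was at 13.15, 15.8, 17.75 and 17.1 FPKM, but its coefficient of 0.26 did not pass (limma adjusted p = 0.0574). Amot and Amotl1 are relatives of Amotl2, and Amot was singled out after its values were seen. It was at 6.82, 5.17, 6.88 and 5.33 FPKM and Amotl1 at 23.4, 21.2, 22.7 and 19.9 FPKM. Both were lower with LIF in 2 of 2 genotypes, without passing (coefficients -0.33 and -0.16, limma adjusted p = 0.167 and 0.336). Limd1 (17.7 to 20.0 FPKM) and Wtip (19.05 to 22.5 FPKM), LIM proteins related to Ajuba, did not pass either.

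Other target genes, 18 in a list of genes commonly named as YAP targets, went in both directions. For genotype 4 were higher in Stat4-/- and 2 lower, beside 7.81% and 7.68% of all genes, with a median coefficient of -0.06. LIF calls covered 0.701% (higher) and 0.122% (lower) of all genes. Those that passed as higher were Fjx1 (coefficient 0.38), Igfbp3 (0.33), Gadd45a (0.25) and F3 (0.13), of which Gadd45a and F3 passed in 5 of 8 alternative settings, Fjx1 in 6 and Igfbp3 in 7. Igfbp3, an IGF-binding protein, was at 88.0, 98.6, 116 and 119 FPKM, and F3, tissue factor, at 628, 580, 696 and 627 FPKM. Nt5e, the ectonucleotidase CD73, was at 16.7, 18.8, 9.52 and 9.39 FPKM (coefficient -0.84, SE 0.080, limma adjusted p = 4.41e-05), a larger difference than that of Ctgf. Myof, which encodes the membrane protein myoferlin, was at 68.85, 55.9, 53.3 and 43.5 FPKM. It was the only one of the 18 that passed for LIF as well, falling by 0.29 on the log2 scale with LIF (limma adjusted p = 0.0287, passed in 3 of 8 alternative settings with an adjusted p of up to 0.547), beside a genotype coefficient of -0.36 (limma adjusted p = 0.000572). Axl (65.9, 62.6, 54.5 and 59.1 FPKM; limma adjusted p = 0.0548), Foxf2, Crim1 and Lats2 did not pass for genotype.

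**Figure D5:**
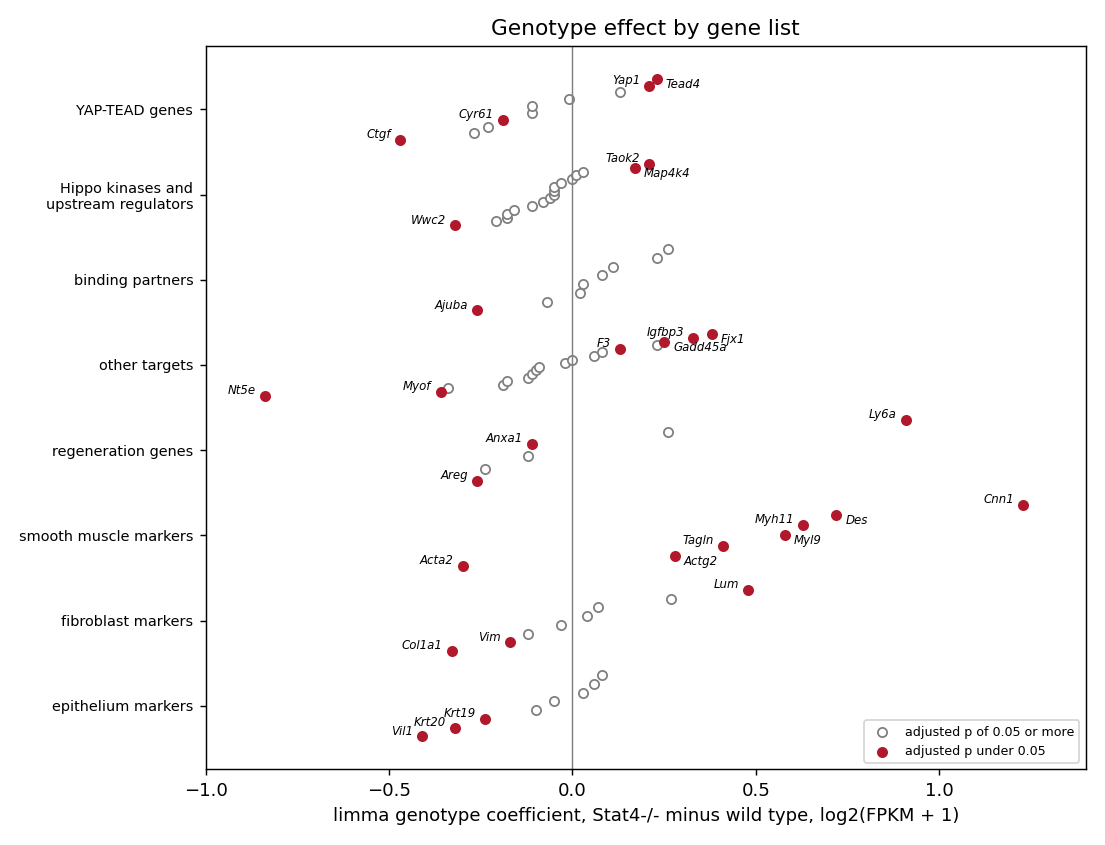
Limma genotype coefficients (Stat4-/- minus wild type, log2(FPKM + 1)) of the genes in 8 lists, with filled points at an adjusted p under 0.05. Target genes lie on both sides of 0, from Nt5e (-0.84) to Fjx1 (0.38), and smooth muscle markers lie to the right except for Acta2 (-0.30).

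Among 6 genes linked to YAP in regenerating gut, Ly6a, the stem cell antigen Sca-1, was at 58.1, 67.0, 108 and 129 FPKM and was higher in Stat4-/- (coefficient 0.91), while Areg, an EGF receptor ligand (160, 157, 134 and 132 FPKM), and Anxa1 were lower; the Anxa1 call held in 5 of 8 alternative settings. With LIF, Ly6a rose by 0.23 on the log2 scale (limma adjusted p = 0.0457), a call that held in 2 of 8 alternative settings. Clu, a secreted chaperone, was at 169, 140.3, 170.1 and 99.07 FPKM. Its LIF difference was -0.27 in wild type and -0.77 in Stat4-/-, and the common coefficient of -0.52 passed (limma adjusted p = 0.0246), as in 3 of 8 alternative settings. For both, the adjusted p reached 0.547. Ereg passed for neither effect. Over all genes, 7.81% passed as higher and 7.68% as lower for genotype, and 0.701% and 0.122% for LIF.

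Among 8652 other genes averaging 5 FPKM or more, those whose values over the 4 libraries lay closest to Yap1 were Cotl1, Nupr1 and Ccdc117, by the Euclidean distance between centred log2(FPKM + 1) values (0.0115, 0.0116 and 0.0134). Cotl1, an actin-binding protein, was at 55.3, 57.8, 63.9 and 67.3 FPKM. Closest to Ctgf were Filip1l, Abcb1a and Tmem106b at distances of 0.0589, 0.0635 and 0.0735, and Filip1l was at 74.4, 68.7, 51.1 and 54.7 FPKM. Closest to Cyr61 were Cyp3a13, Mrps6 and Acap3 at 0.0131, 0.0184 and 0.0219. These distances rest on 4 libraries and describe these libraries only.

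In mm10 (GENCODE M21) the genes lie as follows. Yap1 is on chromosome 9 from 7931999 to 8004596, and Wwtr1 on chromosome 3 from 57455649 to 57575910. Tead1 (112679318 to 112906807) and Tead2 (45215753 to 45233644) are on chromosome 7, Tead3 on chromosome 17 (28331671 to 28350817) and Tead4 on chromosome 6 (128224288 to 128300823). Ctgf, now named Ccn2, is on chromosome 10 (24595442 to 24598683), Cyr61, now Ccn1, on chromosome 3 (145646976 to 145649981), Ankrd1 on chromosome 19 (36111961 to 36120099) and Amotl2 on chromosome 9 (102716672 to 102733418). Exons of Yap1 and Ctgf overlap the opposite-strand genes Gm20416 and Gm15270, which have no row in the table. All 10 are protein-coding.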

How the data were processed

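Libraries were made with a TruSeq RNA kit, per the labels' protocols. The submitters' processing notes list HISAT, Bowtie2 and the build mm10, without versions or roles. Neither the program behind the expression values nor its gene annotation is stated in the sources used here. The authors deposited FPKM with 1 column per group, per the file headers; the design text speaks of duplicates, and whether a column pools them is not stated. All value columns were used, and 26 symbols turned into dates were kept as listed.

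Genes with a mean FPKM of at least 1 (12274) were tested on log2(FPKM + 1) with limma 3.58.1 in R 4.3.3, two-sided, with genotype and treatment as additive terms, a mean-variance trend and Benjamini-Hochberg adjustment over all genes. This fit has 1 residual and 10.2 prior degrees of freedom and counts any interaction as error. It was run on simulated data with additive effects and independent noise. Such data cannot show how the fit behaves where libraries share mice or an interaction exists. Single-library differences have no test. The alternatives were pseudocounts of 0.1 and 5, no filter, a mean of at least 5, 3 scalings and no variance trend.

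Depth was estimated from genes with 1 transcript of 300 to 1500 bases (204 to 226 genes per library), where 55.3 to 61.7% of low values fell no more than 0.15 from a whole count of fragments. Some values fall that close by chance at any depth, and the best-fitting depth was taken, so the share is raised by that choice. The depths are therefore approximate. Counting intervals use the longest coding transcript and are approximate too.

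The genes and lists were chosen with earlier results of these data known. The text names all 10 genes, list genes that passed a test, up to 4 further abundant genes per list, and the 3 nearest profiles of Yap1, Ctgf and Cyr61.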

Additional observations from a re-analysis of the deposited data

Results flagged for a closer look

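Wwtr1 and Ctgf are picked out because their LIF differences had opposite signs in the genotypes, each over 1 pair of libraries. The difference was not tested. Opposite signs were common, since only 28.8% of all genes were above 0 in both genotypes and 29.3% below 0 in both. Wwtr1 differed by -0.03 in wild type, which lay within counting error, and by 0.14 in Stat4-/-, which is 0.17 higher in Stat4-/-. Ctgf differed by -0.07 and 0.14, which is 0.22 higher in Stat4-/-. The Ctgf control level was itself lower in Stat4-/- (92.2 against 138 FPKM).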

How the results depend on the processing

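Of the 10 genes, 0 were called for LIF in the 8 alternatives and 0 differed by 2-fold in the 7 that bear on single differences; Ankrd1 dropped out at a mean of at least 5. The wild-type LIF difference of Cyr61 turned from 0.03 to -0.05 and that in Stat4-/- went from 0.16 to 0.11 with quantile normalization. For genotype, the 2 calls higher in Stat4-/- became 1 with a pseudocount of 0.1, upper-quartile scaling or quantile normalization and 0 with no filter or no variance trend, and the 2 lower became 1 with no filter and 0 with no trend. The Tead2 genotype coefficient turned from -0.01 to 0.00 (median-of-ratios scaling) and 0.03 (quantile normalization). Over all genes, calls higher with LIF went from 86 to 32 and 137 (pseudocounts of 0.1 and 5), 0 (no filter), 4 (median-of-ratios), 30 (upper-quartile), 1 (quantile) and 0 (no trend). Calls lower with LIF went from 15, in the same order, to 5, 31, 1, 2, 9, 3 and 1. For genotype, 959 higher and 943 lower became 407 and 357 with no filter, and 123 and 128 with no trend. Genes at 2-fold, with pseudocounts of 0.1 and 5 and a mean of at least 5, went from 16 to 60, 6 and 4 for LIF in wild type, from 15 to 67, 2 and 3 in Stat4-/-, from 74 to 178, 24 and 39 for genotype without LIF, from 92 to 205, 22 and 42 with LIF, and from 42 to 173, 7 and 6 for the difference of LIF effects (71 with no filter). The causes were not tested. The genotype term of the fit sets LIF against control within each genotype. Pairing by mouse was not possible because each group has 1 column and the labels share only the number 1. Leaving out a library would leave no residual degree of freedom. Depth limits Ankrd1, Tead2 and Tead3 most.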
